A study of Aedes aegypti with 19 samples.

Results

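Ovaries of sugar-fed (SF) Aedes aegypti females were compared at a late and an early time point, day 20 against day 3, by RNA-Seq of total RNA. The comparison rests on 6 of the 19 libraries of the study, those titled as sugar fed with replicate numbers 1, 2 and 4 on each of the 2 days. The mosquitoes came from Poza Rica, Mexico, received a sugar meal at 4 to 7 days of age in place of the sheep blood given to the blood-fed (BF) groups, and were kept on sucrose until dissection. They were therefore 7 to 10 days old on day 3 and 24 to 27 days old on day 20. No SF female was given blood, so neither group had been through an egg cycle started by a blood meal. The libraries of SF day 10 ovaries are given beside them as levels only, and all 19 libraries entered the model that estimated the spread.

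Each library was made from the pooled ovaries of many females, freed of any eggs, with nurse cells, oocytes, follicle cells, sheath muscle and attached tissue together. In such bulk RNA a smaller number of cells of a type and less RNA per cell cannot be told apart. Day and anything else that differed between the collections on the 2 days cannot be told apart either. The RNA was depleted of ribosomal RNA without selection for poly(A), so unspliced and non-coding transcripts were counted too.

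The ovary of an unfed female Aedes aegypti rests with its primary follicles arrested before yolk uptake. A blood meal releases ecdysteroids and insulin-like peptides, the fat body makes vitellogenin, and the follicles take it up. Without blood the follicles wait, and some of them are resorbed. The germline of this species expresses an enlarged family of PIWI proteins, which bind small RNAs that silence transposons and, in this mosquito, also RNA virus sequences.

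Between 48945074 and 50693744 read pairs per SF day 3 library and between 44213927 and 56274885 per SF day 20 library fell on genes. Levels are in CPM, read counts brought to a common library total with TMM factors. A mean stands with its SD (n = 3 libraries), and CPM is not corrected for gene length. Changes are log2 fold changes of day 20 over day 3, so that positive values mean a higher level on day 20. A gene was called a differentially expressed gene (DEG) at a false discovery rate (FDR) p-value under 0.05 in edgeR's quasi-likelihood test, adjusted over all genes tested. On a PCA of the 9 SF libraries, PC1 held 22.98% of the variance. SF day 3 libraries lay between 15.1 and 36.8 on it, SF day 20 libraries between -29.5 and -15.8, and SF day 10 libraries between -8.67 and 16.3. SF day 3 replicate 4 had the highest position on that axis, and it also had the highest share of gene reads outside exons, 5.71% against 3.95% to 4.48% in the 5 others.

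Of the 13904 genes tested, 2446 (17.6%) were DEGs, with 1468 higher (10.6%) and 978 lower (7.03%) on day 20. The changes were small. The median change was 0.30 among the rises and -0.60 among the falls, and 221 genes (1.59%) were called with an absolute log2 fold change above 1, of which 32 rose (0.23%) and 189 fell (1.36%). By edgeR's glmTreat, which tests whether a change exceeds a log2 fold change of 1, 0 genes passed, with 139 at an unadjusted p-value under 0.05. How the DEGs divided between rises and falls changed with the scaling: rises made up 60.0% of the DEGs under TMM, 44.3% with library size alone and 27.7% under upper-quartile scaling. The median of all genes tested moved from -0.03 under TMM to -0.07 and -0.12 under these scalings. The counts of the gene groups below are therefore given under upper-quartile scaling too where they changed. Over all genes tested, 598 rose and 1561 fell under upper-quartile scaling. Leaving out 1 library gave 663 to 1180 rises and 515 to 797 falls. The shares of all genes set beside the groups are those under TMM with all libraries, unless stated.

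Under TMM, rises and falls differed in level and in gene structure, and these profiles were not drawn up under the other scalings. Rises had a median level of 58.6 CPM and falls of 10.2 CPM, against 14.5 CPM over all genes tested. Of the genes between 30 and 100 CPM, 26.6% rose and 5.85% fell, whereas of those between 3 and 10 CPM, 1.56% rose and 15.8% fell. Falls lay in longer genes, with a median gene length of 33340 bases against 9738 for rises and 13110 for all genes tested, and a median of 11.4% of their reads lay outside exons, against 0.879% for rises and 3.61% for all. With exon reads in place of gene reads, 1149 genes rose and 876 fell. The day 10 mean lay between the means of days 3 and 20 for 1448 of the 1468 rises and 946 of the 978 falls, which choosing genes for a gap between days 3 and 20 favours by itself.

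**Figure D1:**
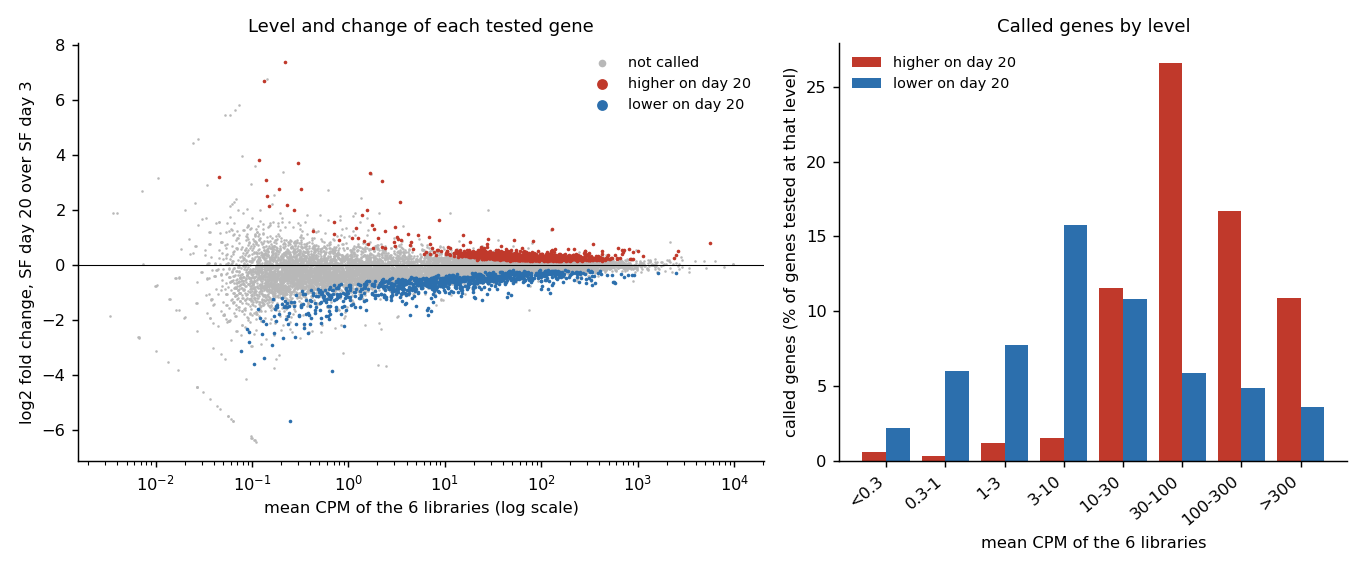
Left, each point is 1 of the 13904 tested genes, with its mean CPM over the 6 libraries on a log scale and its log2 fold change of SF day 20 over SF day 3; right, bars give the share of the genes tested at each level that were called higher (red) or lower (blue) on day 20. Under TMM, falls peak at 15.8% of the genes between 3 and 10 CPM, and rises at 26.6% of those between 30 and 100 CPM.

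Under TMM, the calls were made mostly on protein-coding genes, of which 1437 rose (11.7% of 12253) and 896 fell (7.31%). Of 1561 long non-coding RNA (lncRNA) genes, 27 rose (1.73%) and 82 fell (5.25%). Among 46 small nuclear RNA genes edgeR called 0, and of 30 ribosomal RNA genes 1 rose (3.33%). The 3 chromosomes had similar shares of rises, 10.1%, 11.2% and 10.9% for chromosomes 1, 2 and 3, and of falls, 8.36%, 7.16% and 6.46%.

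Of 58 tested genes of the mitochondrial ribosome, the nuclear-encoded machinery that translates the mitochondrial genome, 20 rose (34.5%, against 10.6% of all genes) and 0 fell. Their median log2 fold change was 0.18 against -0.03 over all genes tested, and 53 of the 58 changes were positive. The median of all genes depended on level. It was 0.12 between 30 and 100 CPM and -0.001 between 10 and 30 CPM, where most members lay. In 39 members all 3 late libraries lay above every early one, against 19.8% of all genes tested, and in 1 all lay below, against 17.8%. Under upper-quartile scaling 10 rose and 0 fell, and without SF day 20 replicate 1 also 10 rose. Over all genes tested in these fits, 598 of 13904 and 663 of 14211 rose. Most members lay at levels where rises were frequent: 12 of the 33 members between 30 and 100 CPM rose (36.4%, against 26.6% of all genes at that level), and 7 of the 20 between 10 and 30 CPM (against 11.6%). The summed level of the 59 members in the files was 1952, 1949 and 1919 CPM in the SF day 3 libraries, between 2074 and 2171 CPM on day 10, and 2304, 2229 and 2147 CPM on day 20, so that the groups did not overlap.

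The mitochondrial ribosomal protein gene mRpS34, of the small subunit, was at 26.7, 24.2 and 27.2 CPM on day 3 and at 38.2, 33.3 and 33.5 CPM on day 20. It rose by 0.43 (SE 0.08, FDR p-value 0.00218), with day 10 in between at 30.7 to 32.2 CPM, and all 3 late libraries lay above every early one. The gene mRpL41, of the large subunit, went from 19.4 ± 1.02 to 25.96 ± 2.44 CPM, a change of 0.42 (SE 0.09, FDR p-value 0.00549). Both kept their call without any single library and under upper-quartile scaling. The most abundant member per exon length, mRpS26, rose by 0.24 (FDR p-value 0.0106), and lost its call under upper-quartile scaling (FDR p-value 0.0841) and without SF day 20 replicate 1 or 2.

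Transcripts of the mitochondrial genome itself had mostly negative changes that did not pass. Of its 14 tested genes 13 were negative, with a median of -0.49, and edgeR called 0, with 1 at an unadjusted p-value under 0.05, 1 by DESeq2 and 0 by limma-voom. The share of gene reads on mitochondrial mRNAs was 0.184% ± 0.0240 (SD, n = 3) on day 3 and 0.123% ± 0.0118 on day 20, without overlap between the groups (exact permutation test, two-sided, p = 0.1, the smallest p-value that 3 against 3 libraries allow). COX1, which encodes subunit I of cytochrome oxidase, was at 1095, 1204 and 930 CPM on day 3 and at 760, 699 and 709 CPM on day 20, a change of -0.57 (SE 0.22, FDR p-value 0.0846). The small mitochondrial ribosomal RNA, ssu rRNA, was at levels from 12.3 to 707 CPM within SF day 3 alone, and no change is read from it. Among the negative changes, ND2 and ND3 also spread widely in SF day 3 replicates 1, 2 and 4. ND2 was at 3.18, 5.49 and 0.0395 CPM there, and ND3 at 18.29, 21.25 and 4.52 CPM. The large ribosomal RNA, lsu rRNA, was steadier, at 2497, 2651 and 2325 CPM. The cause of these spreads was not tested.

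Cytosolic ribosomal protein genes showed no such shift. Of 71 tested members 1 rose, RpL4_1, and 0 fell, and their median was -0.02. RpL4_1 overlaps a gene on the opposite strand, its call was lost in 5 of the 6 fits that left out a library, all but that without SF day 3 replicate 2, and whether the counting used the strand is not given in the sources. Under upper-quartile scaling 3 other members fell and 0 rose.

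Of 20 tested subunits of the Mediator complex, which joins transcription factors to RNA polymerase II, 8 rose (against 10.6% of all genes) and 0 fell, all 20 changes were positive, and the median was 0.21. Between 30 and 100 CPM 4 of 11 members rose, against 26.6% of all genes at that level, and between 10 and 30 CPM 4 of 8, against 11.6%. The median change of all genes at these levels was 0.12 and -0.001. Under upper-quartile scaling 6 rose, and without SF day 20 replicate 1 or SF day 3 replicate 1 there were 5 rises. Over all genes tested in these fits, 598 of 13904, 663 of 14211 and 931 of 14208 rose. Med31 was at 44.2, 43.4 and 44.5 CPM on day 3, at 49.5 to 52.4 CPM on day 10, and at 57.6, 57.1 and 56.8 CPM on day 20. Its libraries agreed closely within each day, and it rose by 0.38 (SE 0.05, FDR p-value 0.00051). Med20 rose by 0.43 (SE 0.09, FDR p-value 0.0038), from 19.5 ± 0.697 to 26.2 ± 1.13 CPM. Med8 rose by 0.46 (FDR p-value 0.0113), but it overlaps a gene on the opposite strand, and its call was lost without SF day 3 replicate 4.

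Of 12 autophagy genes 4 rose (33.3%, against 10.6% of all genes) and 0 fell, with a median of 0.26. Of the 5 members between 30 and 100 CPM 3 rose and of the 5 between 100 and 300 CPM 1, against 26.6% and 16.7% of all genes at these levels. The median change of all genes there was 0.12 and 0.07. APG7B, named for the E1-like enzyme of autophagosome formation, was at 30.4, 36.3 and 30.8 CPM on day 3 and at 44.1, 41.9 and 42.0 CPM on day 20. It rose by 0.39 (SE 0.08, FDR p-value 0.00366) and was the only member called under upper-quartile scaling (FDR p-value 0.0109). APG5, which takes part in the conjugation that extends the autophagosome membrane, rose by 0.34 (SE 0.08, FDR p-value 0.00932) under TMM, with an FDR p-value of 0.0575 under upper-quartile scaling. The list had 2 rises without SF day 20 replicate 2 and 2 without SF day 3 replicate 4. Of the 6 tested proteasome subunits, all between 30 and 100 CPM, 2 rose, against 26.6% of all genes at that level. There was 1 rise under upper-quartile scaling, and 1 without SF day 20 replicate 1, SF day 20 replicate 4 or SF day 3 replicate 4. Prosalpha2, a subunit of the 20S core, went from 49.6 ± 1.58 to 60.8 ± 2.84 CPM, a rise of 0.29 (SE 0.07, FDR p-value 0.00653).

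**Figure D2:**
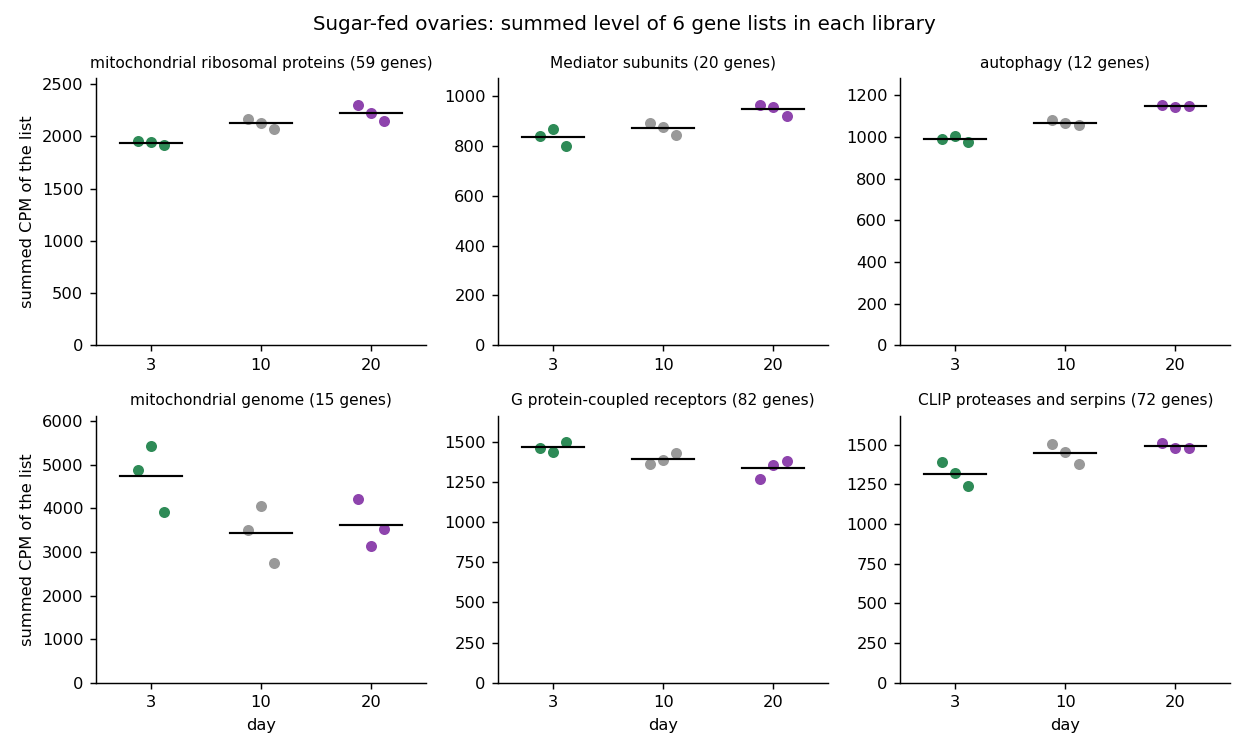
Points give the CPM summed over a gene list in each SF library on days 3, 10 and 20, and lines the mean of 3 libraries. The sums of mitochondrial ribosomal proteins, Mediator subunits, autophagy genes and CLIP proteases with serpins were higher in all 3 day 20 libraries than in any day 3 library. That of G protein-coupled receptors was lower, and that of the mitochondrial genome overlapped. The mitochondrial sum includes ssu rRNA, at 12.3 CPM in SF day 3 replicate 4 and 642 CPM in SF day 20 replicate 1. The sum of CLIP proteases and serpins weighs abundant members most, such as SRPN9, at means of 257 CPM on day 3 and 346 CPM on day 20. Fewer members of that list were called higher than lower.

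Germline genes were detected in every library, from PIWI7, at 0.374 to 0.560 CPM on day 3 and 0.514 to 0.698 CPM on day 20, to osk. The symbol osk, the oskar gene that organises germ plasm in Drosophila, was at 3558 ± 175 CPM on day 3 and 3312 ± 70.4 CPM on day 20, with a change of -0.10 (SE 0.08, FDR p-value 0.377). Of the 8 tested germline and piRNA genes 3 fell, all of the PIWI family, and 0 rose, against 7.03% and 10.6% of all genes. Their median was -0.14. Without SF day 20 replicate 2 the falls numbered 1.

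PIWI3 (chromosome 1 of AaegL5.0, the build of all positions given here, 62468527 to 62479655) was at 295, 302 and 296 CPM on day 3, at 240, 235 and 206 CPM on day 10 and at 193, 164 and 228 CPM on day 20. The day 3 libraries were nearly equal and lay above all later ones, and the gene fell by 0.61 on the log2 scale (SE 0.16, FDR p-value 0.0174). PIWI2, close by on the same chromosome (62489534 to 62494276), was at 129, 111 and 212 CPM on day 3 and at 106, 77.8 and 63.3 CPM on day 20. It changed by -0.87 (SE 0.23, FDR p-value 0.0176), with the groups just apart, and the call was lost without SF day 3 replicate 4, the library with the highest level, and without SF day 20 replicate 2 or 4. PIWI5, which binds virus-derived piRNAs in this mosquito, was at 42.9, 52.0 and 41.9 CPM on day 3 and at 28.3, 31.3 and 32.1 CPM on day 20. It fell by 0.58 (SE 0.13, FDR p-value 0.00883) and kept its call without any single library. Its span (chromosome 3, 279943226 to 279965201) overlaps that of PIWI6 (279908444 to 279964670) on the same strand. How reads in the shared stretch were assigned is not given in the sources. PIWI3 lost its call without SF day 20 replicate 1 and without SF day 20 replicate 2. Of the reads of PIWI2 and PIWI3 99.9% were unique in each, and of those of PIWI5 94.9%.

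Other members of the family did not pass. PIWI4 was at 593, 683 and 690 CPM on day 3 and at 625, 717 and 707 CPM on day 20, a change of 0.06 (FDR p-value 0.701). PIWI6 changed by 0.00. The gene mael, named for maelstrom, a piRNA factor in Drosophila, changed by -0.19 (FDR p-value 0.0802) under TMM and was the additional germline call under upper-quartile scaling, which made 4. In the small interfering and micro RNA machinery of 6 genes edgeR called 0, with 1 at an unadjusted p-value under 0.05 and 0 by DESeq2 and limma-voom. AGO2, the slicer of the antiviral siRNA pathway, was at 74.7, 90.1 and 91.7 CPM on day 3 and at 96.1, 103 and 102 CPM on day 20 (0.23, FDR p-value 0.107).

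**Figure D3:**
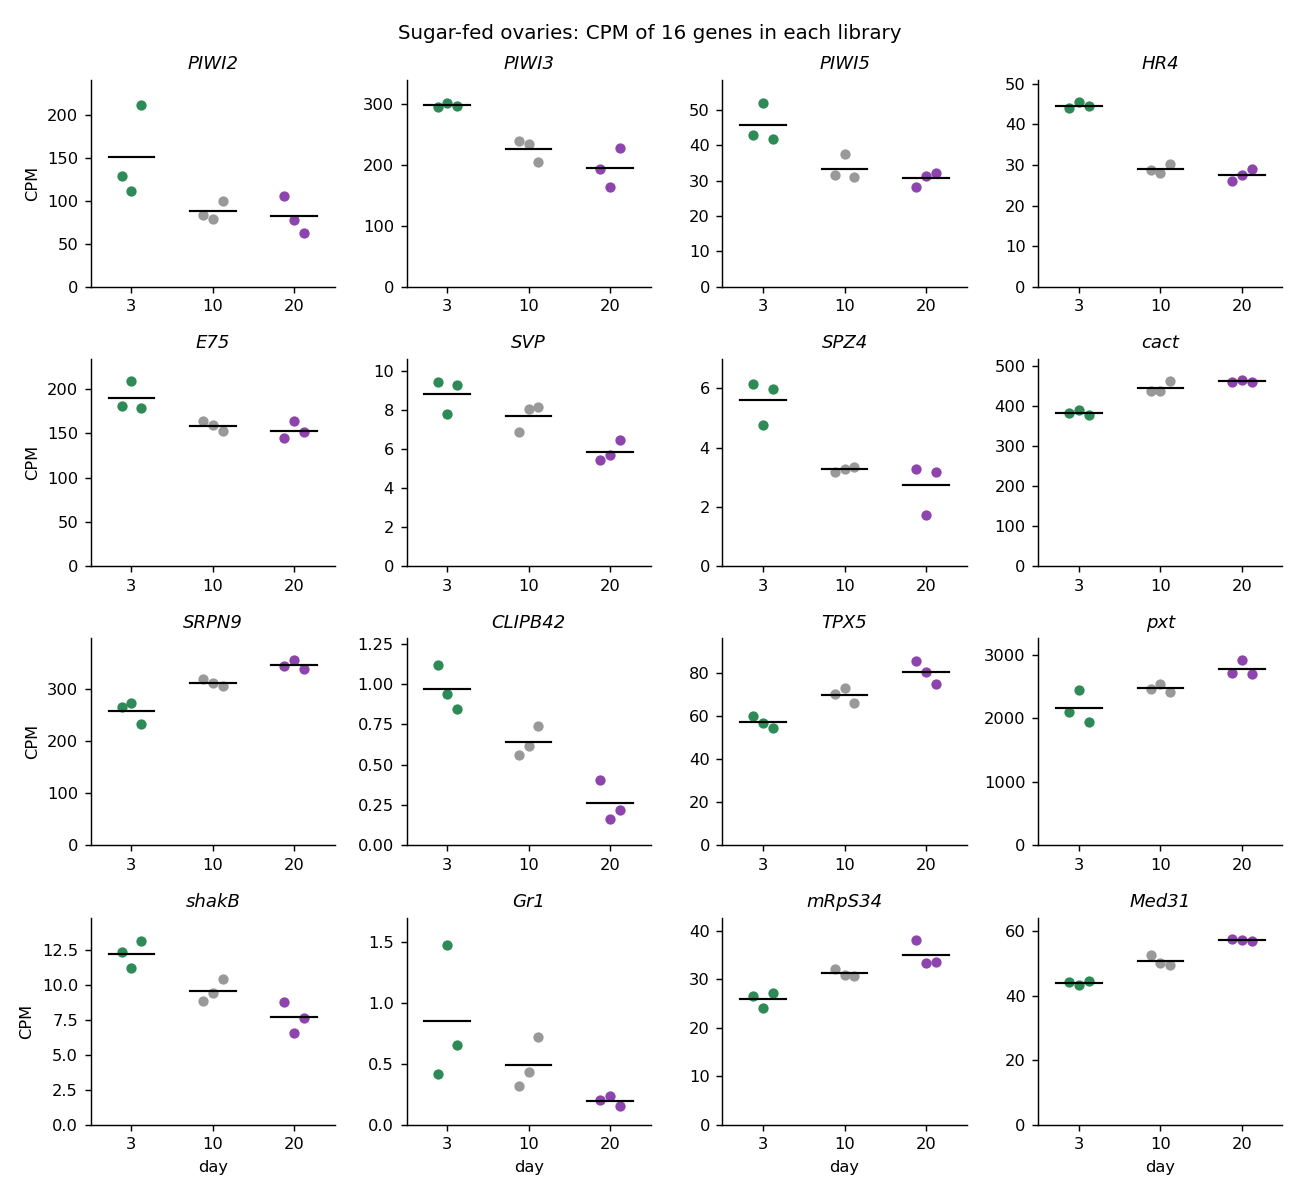
Each panel shows the CPM of a gene in the SF libraries of days 3, 10 and 20, with points for libraries, in the order of replicates 1, 2 and 4, and lines for the mean of 3 libraries; every axis starts at 0. HR4 drops from about 44.6 CPM on day 3 to 27.5 CPM on day 20 with little spread, whereas PIWI2 and Gr1 show a wide spread on day 3.

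Hormone-related genes held few calls. Of 16 tested genes of hormone response and insulin signalling, 3 nuclear receptors fell and IPPI, named for the isopentenyl diphosphate isomerase of isoprenoid synthesis, rose, 18.8% and 6.25% against 7.03% and 10.6% of all genes. HR4, a nuclear receptor of the ecdysone cascade, was at 43.9, 45.4 and 44.5 CPM on day 3, at 28.7, 28.03 and 30.2 CPM on day 10 and at 26, 27.4 and 29.1 CPM on day 20. The day 10 libraries already lay far below those of day 3, and the fall to day 20 was 0.70 on the log2 scale (SE 0.09, FDR p-value 0.000321). With exon reads alone the change was -0.91, and the gene overlaps another on the opposite strand. SVP, an orphan receptor that counteracts ecdysteroid signalling in the mosquito fat body, fell by 0.59 (SE 0.14, FDR p-value 0.00932), from 8.82 ± 0.910 to 5.85 ± 0.541 CPM. Of the SVP reads 61.1% lay outside exons. E75, a receptor induced by ecdysone, was at 181, 209 and 179 CPM on day 3 and at 144, 164 and 152 CPM on day 20, and it fell by 0.31 (SE 0.08, FDR p-value 0.0106). HR4 and SVP kept their calls without any single library, while E75 lost its call without SF day 20 replicate 1 and without SF day 3 replicate 2.

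The ecdysone receptor itself and its partner did not pass: EcR changed by -0.10 (FDR p-value 0.429) and USP by 0.09 (FDR p-value 0.21). The insulin receptor InR changed by 0.05 (FDR p-value 0.779). IPPI went from 53.0 ± 3.18 to 60.8 ± 1.37 CPM (0.20, SE 0.06, FDR p-value 0.0347), a call not made under upper-quartile scaling (FDR p-value 0.262) or in 5 of the 6 fits that left out a library, all but that without SF day 3 replicate 1. Of the 4 tested P450 genes of ecdysteroid metabolism, CYP315A1, which acts late in ecdysone synthesis, fell by 0.48 (SE 0.14, FDR p-value 0.0272), from 3.00, 2.93 and 3.57 CPM to 2.22, 2.18 and 2.40 CPM, and was not called without SF day 20 replicate 1 or 2 or SF day 3 replicate 4. CYP307A1, an early enzyme of the same route, was at 18.2, 25.7 and 30.3 CPM and then at 16.8, 26.8 and 27.4 CPM, with overlapping groups (-0.07, FDR p-value 0.889).

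Immune signalling genes changed in both directions. Of 34 tested genes listed for the Toll, IMD and JAK-STAT pathways, 3 rose and 4 fell. These shares of 8.82% and 11.8% were near the 10.6% and 7.03% of all genes. Under upper-quartile scaling 1 rose and 5 fell, without SF day 3 replicate 2 there were 5 of each, and without SF day 3 replicate 4 there were 2 of each. Among the ligands, SPZ4, named for the Toll ligand Spätzle, was at 6.14, 4.76 and 5.98 CPM on day 3, at 3.17 to 3.35 CPM on day 10 and at 3.29, 1.73 and 3.18 CPM on day 20. The early libraries were all above the later ones, and it fell by 1.04 on the log2 scale (SE 0.20, FDR p-value 0.00289). The receptors TOLL11 and TOLL5A fell by 0.82 (FDR p-value 0.0114) and 0.34 (FDR p-value 0.042), the former not without SF day 3 replicate 4 and the latter called only in the leave-out fit without SF day 3 replicate 2. IMD, the adaptor of the IMD pathway, went from 8.35 ± 1.11 to 5.39 ± 0.587 CPM (-0.63, SE 0.14, FDR p-value 0.00637).

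The rises in the list were those of cact, IKK2 and Dredd. TUBE, an adaptor of the Toll pathway that the list did not hold, also rose, by 0.35 (FDR p-value 0.00105). The gene cact, for the IκB-type inhibitor of the Toll pathway, was at 383, 391 and 377 CPM on day 3, at 437 to 462 CPM on day 10 and at 460, 466 and 460 CPM on day 20. Its libraries varied little within a day, and it rose by 0.27 (SE 0.06, FDR p-value 0.00587), though its FDR p-value was 0.0713 under upper-quartile scaling. IKK2, named for an IκB kinase, rose by 0.33 (SE 0.06, FDR p-value 0.00289), from 90.2 ± 5.13 to 113 ± 6.29 CPM, with 48.3% of its reads unique. Dredd, the caspase of the IMD pathway, rose by 0.36 (SE 0.11, FDR p-value 0.0289), but its call was lost in 5 of the 6 fits that left out a library, all except that without SF day 3 replicate 2, and under upper-quartile scaling.

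Effectors were low in ovaries of either age. Of 17 tested genes for antimicrobial peptides and lysozymes, edgeR called 0, with 0 at an unadjusted p-value under 0.05 and 0 by DESeq2 and limma-voom, and the median was -0.45. The defensin gene DEFD was at 0.36, 1.64 and 2.76 CPM on day 3 and at 0.0184, 0.19 and 0.327 CPM on day 20, so that all late libraries lay below the early ones, and yet the change of -3.20 did not pass (FDR p-value 0.206). Defensins and cecropins varied widely among libraries, and their level was highest in replicate 4 for DEFD, DEFC, DEFA_1 and CECA on both days. DEFA_1 had 0% unique reads, so its level cannot be told from that of a near-identical copy. LYSC7B, the most abundant member per exon length, was at 15.6 to 20.5 CPM on day 3 and 17.9 to 20.1 CPM on day 20.

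Of the CLIP proteases and serpins, the enzymes and inhibitors of extracellular immune cascades, 3 of 65 rose and 5 fell, 4.62% and 7.69%, against 10.6% and 7.03% of all genes. Without SF day 20 replicate 1 there were 1 and 2, and without SF day 20 replicate 2 or SF day 3 replicate 4 there were 2 and 3. On exon reads 3 rose and 2 fell. Most members lay below 10 CPM, where few of all genes rose. Of the 21 members between 0.3 and 1 CPM 0 rose, against 0.298% of all genes at that level. Of the 11 between 3 and 10 CPM 0 rose, against 1.56%. Of the 6 between 30 and 100 CPM 1 rose, against 26.6%, and of the 4 between 100 and 300 CPM 1, against 16.7%. The 1 member above 300 CPM rose, against 10.9%. SRPN9, a serpin, was at 265, 274 and 233 CPM on day 3, at 306 to 319 CPM on day 10 and at 344, 355 and 338 CPM on day 20. It rose by 0.43 (SE 0.07, FDR p-value 0.00136) and was called without any single library and under each scaling. CLIPC3 rose by 0.39 (SE 0.08, FDR p-value 0.00587), but not without SF day 20 replicate 1. CLIPB42 was low throughout, at 1.12, 0.936 and 0.849 CPM on day 3 and at 0.404, 0.166 and 0.218 CPM on day 20. It changed by -1.85 (SE 0.41, FDR p-value 0.00639) on a sum of 144 and 39 reads, and kept its call without any single library. Pattern recognition genes had 4 falls among 64 (6.25%, against 7.03% of all genes) and 0 rises, which by DESeq2 and limma-voom was 5 falls and 0 rises each, with 0 rises at an unadjusted p-value under 0.05. SCRB5, a class B scavenger receptor, fell by 0.57 (SE 0.11, FDR p-value 0.00289), from 24.6, 25.6 and 26.8 CPM to 17.6, 16.6 and 17.8 CPM. It overlaps several genes on the opposite strand, and 73.3% of its reads lay outside exons, while exon reads alone gave -0.77 (FDR p-value 0.00471).

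Among antioxidant enzymes and peroxidases 2 of 20 rose, a share near the 10.6% of all genes, and 0 fell, with a median of -0.17. Without SF day 3 replicate 2 there were 3 rises, and 1 without each of the others but SF day 20 replicate 4. TPX5, a thioredoxin peroxidase, was at 60.0, 56.6 and 54.3 CPM on day 3 and at 85.6, 80.3 and 74.98 CPM on day 20, without overlap. It rose by 0.50 (SE 0.10, FDR p-value 0.00289). HPX8B, a heme peroxidase, was at 2088, 2617 and 1776 CPM on day 3 and at 3117, 3537 and 2700 CPM on day 20, and it rose by 0.53 (SE 0.14, FDR p-value 0.0175). The neighbouring gene pxt, named for a cyclooxygenase-like peroxidase of Drosophila follicle maturation, rose by 0.36 (SE 0.10, FDR p-value 0.0224), from 2160 ± 259 to 2776 ± 119 CPM. HPX8B lies on chromosome 1 at 235800069 to 235803156 and pxt at 235812483 to 235815290. The calls were less stable than that of TPX5: HPX8B lost its call without SF day 3 replicates 1 or 4 or SF day 20 replicates 1 or 2, and pxt without any library but SF day 3 replicate 2, and under upper-quartile scaling (FDR p-value 0.072).

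Of 87 P450 genes outside ecdysteroid metabolism 7 fell and 1 rose, 8.05% and 1.15%. The share of falls is near the 7.03% of all genes, of which 10.6% rose. Most members lay below 10 CPM, where few of all genes rose. Of the 26 members between 0.3 and 1 CPM 0 rose, against 0.298% of all genes at that level. Of the 11 between 3 and 10 CPM 0 rose, against 1.56%, and of the 5 between 30 and 100 CPM 1, against 26.6%. CYP6AG6 was at 4.34, 3.26 and 3.93 CPM on day 3 and at 1.62, 1.61 and 2.18 CPM on day 20, with a clear gap between the days. It fell by 1.09 on the log2 scale (SE 0.22, FDR p-value 0.00362) and kept its call without any single library. The number of falls went down to 2 without SF day 3 replicate 1 and to 3 without SF day 20 replicate 1 or 2, and to 4 without SF day 3 replicate 4. CYP12F8 rose by 0.33 (FDR p-value 0.0156), and not under upper-quartile scaling (FDR p-value 0.0505), nor without SF day 20 replicate 1 or 2 or SF day 3 replicate 1 or 4. Of 20 glutathione transferases edgeR called 0, with 5 lower at an unadjusted p-value under 0.05, 4 by DESeq2 and 1 by limma-voom.

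Membrane receptors made up the largest group of falls among the lists. Of 75 tested genes with G protein-coupled receptor symbols, 20 fell and 1 rose, which is 26.7% against 7.03% of all genes, and 60 changes were negative, with a median of -0.38. Many lay at levels where falls were frequent: 9 of the 28 members between 3 and 10 CPM fell (32.1%, against 15.8% of all genes at that level) and 8 of the 18 between 10 and 30 CPM (44.4%, against 10.8%). The median change of all genes at these levels was -0.25 and -0.001. The count rested largely on single libraries. It was 2 without SF day 20 replicate 1, and 6 without SF day 20 replicate 2 or SF day 3 replicate 4. It was 9 without SF day 3 replicate 1 and 13 without SF day 20 replicate 4. On exon reads 14 fell, and under upper-quartile scaling 27. The 2 falls without SF day 20 replicate 1 were near the share of all genes, of which 515 of 14211 fell. Under upper-quartile scaling 1561 of all 13904 genes fell. GPRNNA19_1 was at 10.1, 12.3 and 9.12 CPM on day 3 and at 5.20, 7.17 and 4.99 CPM on day 20. It fell by 0.86 (SE 0.20, FDR p-value 0.00709) in all fits that left out a library. GPRNPR3 rose by 0.28 (FDR p-value 0.0234), from 137 ± 6.76 to 166 ± 11.6 CPM, and lost its call under upper-quartile scaling and without SF day 20 replicate 2, SF day 20 replicate 4 or SF day 3 replicate 1.

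Chemoreceptor and pickpocket channel genes were mostly silent, with 55 of 135 tested. Of these 6 fell (10.9%, against 7.03% of all genes and between 6.01% and 15.8% of those at levels from 0.3 to 10 CPM) and 0 rose, with 0 rises at an unadjusted p-value under 0.05 and by DESeq2 and limma-voom. Without SF day 20 replicate 1 and without SF day 3 replicate 4, 3 fell each. Gr1, a subunit of the carbon dioxide receptor in antennal and maxillary sense organs, was at 0.42, 1.48 and 0.651 CPM on day 3 and at 0.202, 0.237 and 0.153 CPM on day 20. The levels are low, 125 reads against 28 in all, and day 3 replicate 2 was the highest. Gr1 changed by -2.09 (SE 0.46, FDR p-value 0.0062) and Or11, an odorant receptor, by -1.22 (SE 0.27, FDR p-value 0.00639), and both kept their calls without any single library. In the odorant-binding protein family 24 of 42 genes were tested and edgeR called 0, with 1 lower at an unadjusted p-value under 0.05 and 0 by DESeq2 and limma-voom.

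Gap junction genes of the innexin family had 2 falls among 6 and 0 rises, and all 6 changes were negative. Over all genes 7.03% fell, and 15.8% of those between 3 and 10 CPM, where both falls lay. The gene shakB (chromosome 3, 197348027 to 197625204) was at 12.3, 11.2 and 13.1 CPM on day 3 and at 8.76, 6.58 and 7.66 CPM on day 20. The groups were well apart, and it fell by 0.67 (SE 0.15, FDR p-value 0.00631). Of its reads 67.1% lay outside exons. Next to it on the chromosome, inx1 (197635893 to 197673264) was at 7.66, 7.44 and 8.29 CPM on day 3 and at 5.75, 5.27 and 5.02 CPM on day 20, a fall of 0.54 (SE 0.13, FDR p-value 0.00978). Both kept their calls without any single library. By contrast inx4, which in Drosophila joins germ cells to the soma and was the most abundant member per exon length, was at 346, 304 and 337 CPM and then at 328, 319 and 329 CPM, a change of -0.01 (SE 0.06, FDR p-value 0.905).

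**Figure D4:**
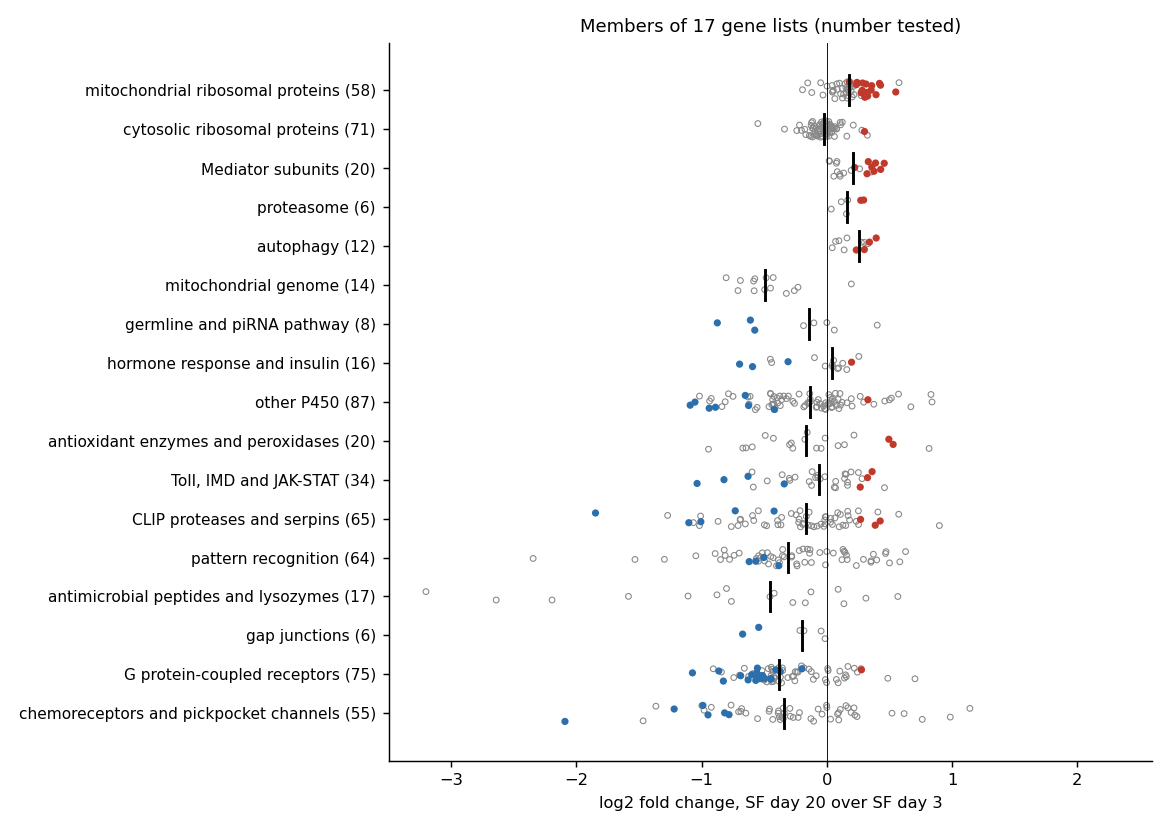
Points give the log2 fold change of SF day 20 over SF day 3 of each tested member of a gene list, with called rises in red, called falls in blue and uncalled genes as open circles; black bars mark the medians and numbers in brackets the genes tested. Medians were -0.49 for the mitochondrial genome, -0.45 for antimicrobial peptides and lysozymes and -0.38 for G protein-coupled receptors. They were 0.21 for Mediator subunits and 0.26 for autophagy.

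The remaining lists held few calls. Of 14 tested apoptosis genes 1 rose and 2 fell, with a median of 0.07, shares of 7.14% and 14.3% against 10.6% and 7.03% of all genes. The rise, IAP5, was lost in 4 of the 6 fits that left out a library, those without SF day 20 replicate 1 or 2 or SF day 3 replicate 1 or 2, and in the same fits the falls numbered 1. IMP, the larger fall, was at 19.4, 21.9 and 25.2 CPM on day 3 and at 11.9, 13.9 and 15.6 CPM on day 20, without overlap, and changed by -0.69 (SE 0.13, FDR p-value 0.00249) in every fit that left out a library. Both HSP70 genes, 6 carboxylesterases, 5 circadian clock genes and 40 tested U snRNA genes had 0 calls by edgeR. Of them 0, 0, 2 and 4 had an unadjusted p-value under 0.05, DESeq2 called 0, 0, 0 and 2, and limma-voom 0 in each. The 2 eggshell genes are pxt, described above, and a second gene that did not pass.

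Genes without a symbol held the largest called changes, and they are given by their identifiers. Among abundant transcripts, AAEL007097 was at 3669, 4519 and 4141 CPM on day 3, at 5327, 6865 and 6479 CPM on day 10 and at 6684, 8261 and 6468 CPM on day 20. All later libraries lay above the early ones. It rose by 0.80 (SE 0.25), but with an FDR p-value of 0.0412 the call was lost without any of the 6 libraries and under upper-quartile scaling. The lncRNA gene AAEL028105 was at 692, 648 and 574 CPM on day 3 and at 1074, 926 and 905 CPM on day 20, and rose by 0.60 (SE 0.12, FDR p-value 0.00362) in each of these fits. In the other direction AAEL005213 went from 697 ± 92.6 to 450 ± 47.9 CPM (-0.63, SE 0.18, FDR p-value 0.0272), which overlaps a gene on the opposite strand and was not called without SF day 20 replicate 2 or 4 or SF day 3 replicate 1 or 4, and AAEL002422 from 983 ± 123 to 761 ± 28.3 CPM (-0.37, SE 0.09, FDR p-value 0.00989), the latter called without any single library.

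AAEL011202 was at 64.8, 73.6 and 84.5 CPM on day 3, at 112, 105 and 235 CPM on day 10 and at 239, 187 and 126 CPM on day 20. The late libraries spread widely, and the rise of 1.31 (SE 0.33, FDR p-value 0.0153) was not called without SF day 20 replicate 1 or without SF day 3 replicate 1. AAEL014136 was at 0.52, 1.02 and 0.276 CPM on day 3 and at 1.71, 3.13 and 1.70 CPM on day 20, and it rose by 1.85 (SE 0.40, FDR p-value 0.00587) in all such fits. AAEL025434, with 7 reads in all on day 3 and 47 on day 20, rose by 2.76 (SE 0.60, FDR p-value 0.00609), also in all of them.

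The largest fall that met the naming rule was that of AAEL021694, on a scaffold outside the 3 chromosomes, with 72 reads over the day 3 libraries and 1 read over those of day 20. The ratio of day 3 to day 20 was 68.9 (exact 95% interval 11.98 to 2760, for counting error only), the FDR p-value was 0.0105, and the call was lost without SF day 20 replicate 1. AAEL021870 was at 1.30, 0.561 and 0.612 CPM on day 3 and at 0.147, 0.332 and 0.174 CPM on day 20, a change of -1.93 (SE 0.40, FDR p-value 0.00462). Among lncRNA genes, AAEL020803 was at 0.02, 0.125 and 0.0987 CPM on day 3 and at 0.496, 0.760 and 0.436 CPM on day 20, and rose by 2.76 (SE 0.53, FDR p-value 0.00287). AAEL025254 was at 0.440, 0.416 and 0.237 CPM and then at 0.0551, 0.095 and 0.0218 CPM, a change of -2.63 (SE 0.55, FDR p-value 0.00444). These low-level genes rest on few reads, and all but AAEL021694 kept their calls without any single library.

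A few large changes rested on single libraries. AAEL019483 was at 25.7 CPM in SF day 20 replicate 1, at 8.52 and 5.39 CPM in the other late libraries and at 3.72 to 5.09 CPM on day 3. Its rise of 1.65 was not called without that library (FDR p-value 0.0988), and on exon reads it changed by 0.59 (FDR p-value 0.531). AAEL024370 was at 2.17, 0.475 and 9.27 CPM on day 20 against 0.276 to 0.769 CPM on day 3, so that the groups overlapped, and its rise of 3.06 was not called without SF day 20 replicate 4. Of its reads 59.6% were unique.

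Markers of other tissues were low, apart from the transferrin gene Tf2, and edgeR called few of them. Summed over 7 prophenoloxidase genes of haemocytes the level was 6.78 to 10.01 CPM on day 3 and 6.67 to 7.57 CPM on day 20. Of these genes PPO5 fell, from 1.24 ± 0.485 to 0.600 ± 0.159 CPM (-1.05, SE 0.33, FDR p-value 0.0377), and on exon reads its FDR p-value was 0.0536. That call was also lost without SF day 20 replicate 1, SF day 20 replicate 4 or SF day 3 replicate 4. The 16 neuron and photoreceptor genes summed to 30.5 to 33.1 CPM on day 3 and 25.8 to 27.9 CPM on day 20, without overlap, while the 9 midgut and salivary gland genes summed to 2.12 to 5.23 CPM and 2.09 to 2.28 CPM, and 2 muscle and cytoskeleton genes to 8.29 to 8.40 CPM and 6.10 to 7.78 CPM, also without overlap. The 4 fat body genes summed to 124 to 130 CPM and 127 to 140 CPM, most of it Tf2, a transferrin (0.20, FDR p-value 0.12). The changes of Tf1, Vcp and AKHR were negative, at -1.22, -0.87 and -0.52, and were not called (FDR p-values 0.322, 0.293 and 0.106). In these 4 lists edgeR called 0 of 11, 5, 2 and 4 tested genes, with 3, 1, 0 and 2 at an unadjusted p-value under 0.05, 1, 0, 0 and 0 by DESeq2, and 0 in each by limma-voom. Of the 2 muscle and cytoskeleton genes, Act1 changed by -0.31 (FDR p-value 0.23) and Act-4 by 0.04 (FDR p-value 0.944). The neuron and G protein-coupled receptor lists share members, GPROP8 and GPROP10 among them. The lower sums of neuron and muscle genes moved with the falls of G protein-coupled receptors, chemoreceptors and shakB, and their part in them was not tested.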

How the data were processed

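Ovary RNA of the SF groups on days 20 and 3 was compared, with 3 pools of ovaries each. The authors trimmed the reads and mapped them in the Qiagen CLC workbench to the VectorBase genome AaegL5.0. Their deposited counts are unnormalized whole read pairs for 19381 genes. The authors' RPKM values, from exon reads, gave only the mapped total of each library, and the deposited TPM values were not used. Counting strand and the treatment of reads with several matches are not stated there.

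The total read count of each gene was tested with edgeR 4.0.16 (R 4.3.3) after filterByExpr (minimum count 10, minimum total count 15) and TMM scaling, in a robust quasi-likelihood fit of all 19 libraries with a coefficient per group (13 residual degrees of freedom, common biological coefficient of variation 0.16) and Benjamini-Hochberg adjustment at 0.05. The SE is the absolute log2 fold change over the root of F. Replicate pairs differed by more than sampling noise. The authors call the replicates biological, each a pool of females, and p-values measure the spread between these pools.

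Members and lists were chosen with earlier results of these data known. The 32 lists were fitted to the symbols in the files (1102 genes have one) after the files were seen. Named genes were DEGs without overlap between groups, with at least 10 reads in each library of the higher group and 50% unique reads: the 8 largest protein-coding rises and falls were ranked, then the 5 largest in CPM, 3 lncRNAs, and 2 per list and direction, with the most abundant member of some lists. Only some are printed, and an item that met the rule is not reported here. Members named beyond this, AAEL024370 among them, were chosen after their values were seen. Alternatives were DESeq2 1.42.0, limma-voom (limma 3.58.1), RLE, upper-quartile and library-size scaling, other filters, the 6 or 9 SF libraries alone, unique or exon reads, a replicate block, an FDR of 0.01, glmTreat, and leaving out each library. The fit was tested on simulated data.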

Additional observations from a re-analysis of the deposited data

How the results depend on the processing

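The 2446 DEGs, and the 221 with an absolute log2 fold change above 1, rested on each library in part. Leaving out 1 library gave 1178 to 1977 DEGs, and 139 to 214 above that fold. The DEGs numbered 1178 without SF day 20 replicate 1, 1230 without SF day 20 replicate 2, 1349 without SF day 3 replicate 4 and 1584 without SF day 3 replicate 1; above that fold there were 143, 144, 139 and 151. Without each of the 6 libraries in turn, 799 of the DEGs were always called. An FDR of 0.01 left 896 and 72, and glmTreat left 0 and 0. The other settings without a replicate block gave 2025 (exon reads) to 3149 (DESeq2) DEGs. The groups shared replicate numbers, and with the replicate number as a block there were 3213 DEGs in the fit of 19 libraries and 3168 in that of 6. The paper assigns its samples to biological replicates by these numbers. Same-numbered libraries deviated together with correlations of 0.102, 0.0576 and 0.0641, against -0.074 to 0.0051 for differently numbered ones. Each library correlated best with its own number, and the main fit did not use this pairing. Of 1667 values of the 80 named DEGs under the alternatives, 1313 kept direction and call, 354 lost the call, 80 of them under glmTreat, and 0 reversed. Genes that were not DEGs reversed in places. Their log2 fold changes were -0.00552 (loqs) with library size alone, and -0.0495 (loqs), -0.00539 (USP) and -0.00266 (LYSC7B) under upper-quartile scaling. Leaving out each library they ran from -0.308 to 0.221 (PPO6), -0.0108 to 0.0952 (loqs), -0.248 to 0.118 (CYP307A1), -0.697 to 0.0388 (HSP70Ba) and -0.0699 to 0.0195 (inx4). The causes were not tested. Depth limits the genes below 1 CPM, which rest on few reads.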

Other observations

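Of 104 tested genes with a symbol in none of the lists, 14 were higher and 7 lower on day 20. Over all genes tested, 10.6% were higher and 7.03% lower. The genes named here were chosen after their values were seen. TUBE, an adaptor of the Toll pathway, went from 69.9 ± 0.609 to 88.9 ± 3.21 CPM (0.35, FDR p-value 0.00105). NOS, nitric oxide synthase, went from 184 ± 9.996 to 220 ± 10.7 CPM (0.26, FDR p-value 0.0338), a call lost under upper-quartile scaling (FDR p-value 0.192) and in 5 of the 6 fits that left out a library, all but that without SF day 3 replicate 1. The gene srp54, a subunit of the signal recognition particle, went from 82.8 ± 5.73 to 103 ± 1.37 CPM (0.31, FDR p-value 0.00251). Among the falls, FAS1, named for a fatty acid synthase, went from 362 ± 7.48 to 264 ± 1.42 CPM (-0.45, FDR p-value 0.00378), and twf, named for the actin-binding protein twinfilin, from 42.8 ± 2.92 to 31.2 ± 1.07 CPM (-0.46, FDR p-value 0.00277). Tdo, tryptophan dioxygenase, was low, at 0.913 ± 0.0715 and 0.388 ± 0.148 CPM (-1.22, FDR p-value 0.0484), and lost its call in each of the 6 fits that left out a library. TUBE, srp54, FAS1 and twf kept theirs in each.

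The lncRNA gene AAEL022922 had 0 reads in the 3 SF day 3 libraries and 62 reads in those of day 20, at 0.386, 0.451 and 0.480 CPM, at least 21.6-fold higher on day 20 when the early group is set to 3 reads in all. Of its reads 11.3% were unique, and its level is uncertain where genes of near-identical sequence share reads.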
